A study of Mus musculus with 18 samples.

Results

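Heat shock proteins and DnaJ proteins were followed in the hearts of HXP, MI and control mice. The genes are the protein-coding ones whose symbols in the GENCODE M21 annotation start with Dnaj, Hspa, Hspb, Hspd, Hspe, Hsph or Hsp90. That rule found 73 of the 34150 genes with a deposited value, 44 with Dnaj symbols and 29 with Hsp symbols. RNA of heart tissue, freed of ribosomal RNA, had been sequenced in 6 libraries from HXP mice, 6 from MI mice and 6 from control mice. MI is myocardial infarction, and by the title of the series HXP is a treatment given in a mouse model of acute infarction. The sources used here do not give what HXP stands for, its dose or duration, the time of tissue collection, whether each HXP mouse was infarcted, or the strain, sex and age of the mice. They also do not say whether control mice had a sham operation, nor which region of the heart was sampled.

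Chaperones bind unfolded protein chains and help them to fold, to cross membranes or to be degraded. Hsp70 proteins do this in cycles of ATP hydrolysis that J-domain (DnaJ) proteins start, Hsp90 proteins finish the folding of kinases, hormone receptors and other clients, and small heat shock proteins hold unfolded chains without using ATP. The cytosolic set is induced by heat shock factor 1, the set of the endoplasmic reticulum (ER) by the unfolded protein response, and mitochondria carry their own Hsp70, Hsp60 and Hsp10. Cardiac muscle is known for large amounts of small heat shock proteins, which protect the contractile filaments.

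The sequences before the transcription start of 4 genes are printed because these genes recur below and hold a binding motif of one of the stress programs. Of the 73 genes, 59 had a window in the RefSeq promoter table (GRCm38.p6), which runs from 250 bases before to 50 after each start. The ER stress response element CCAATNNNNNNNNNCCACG was searched on both strands and was found in 3 of the 76 windows of these 59 genes (3.95%) and in 0.119% of all 32851 windows of that length. Those 3 windows belong to the ER chaperones Hspa5 (BiP, the ER Hsp70), Hsp90b1 (Grp94, the ER Hsp90) and Dnajc3 (P58IPK, a luminal co-chaperone of BiP). The heat shock element GAANNTTCNNGAA was found, on either strand, in 6 of the 76 windows (7.89%) and in 0.603% of all windows. The 6 windows belong to Hspd1 and Hspe1 (mitochondrial Hsp60 and its partner Hsp10), Hsph1 (Hsp110) and Dnajb6. Hsph1 and Dnajb6 each have overlapping windows that hold the same match, and Hspd1 and Hspe1 share theirs. These shares count windows, so such a site is counted more than once. The match of Hsph1 lies after the start. Below are the 250 bases before the start, 5′ to 3′ on the strand of the gene, with matches to either element in capitals. Hspa5 lies at chr2:34771840-34772089 (plus strand), Hsp90b1 at chr10:86705445-86705694 (minus strand), Dnajc3 at chr14:118937682-118937931 (plus strand) and Hspe1 at chr1:55087898-55088147 (plus strand).
Hspa5: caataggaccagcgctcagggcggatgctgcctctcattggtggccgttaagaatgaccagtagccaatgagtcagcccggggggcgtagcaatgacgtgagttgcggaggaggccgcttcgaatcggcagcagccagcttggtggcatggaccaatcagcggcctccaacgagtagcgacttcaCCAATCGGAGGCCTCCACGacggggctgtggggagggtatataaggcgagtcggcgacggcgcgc
Hsp90b1: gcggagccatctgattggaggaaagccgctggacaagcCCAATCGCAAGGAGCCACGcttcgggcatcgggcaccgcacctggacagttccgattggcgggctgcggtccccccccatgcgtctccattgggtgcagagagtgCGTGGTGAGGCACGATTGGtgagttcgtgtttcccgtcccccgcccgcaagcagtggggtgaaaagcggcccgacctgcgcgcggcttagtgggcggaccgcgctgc
Dnajc3: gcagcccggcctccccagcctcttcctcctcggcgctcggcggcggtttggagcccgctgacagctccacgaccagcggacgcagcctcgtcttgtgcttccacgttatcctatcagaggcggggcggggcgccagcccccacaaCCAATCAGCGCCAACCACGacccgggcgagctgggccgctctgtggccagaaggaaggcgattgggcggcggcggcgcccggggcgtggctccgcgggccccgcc
Hspe1: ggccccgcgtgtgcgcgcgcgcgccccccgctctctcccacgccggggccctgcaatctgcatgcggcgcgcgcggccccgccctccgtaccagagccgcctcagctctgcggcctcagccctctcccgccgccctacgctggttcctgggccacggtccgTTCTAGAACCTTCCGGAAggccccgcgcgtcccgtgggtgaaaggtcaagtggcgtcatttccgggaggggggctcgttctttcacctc
The Hsp90b1 window holds 2 matches, one on each strand, and the other ER genes hold 1 each. In Hspe1 the capitals are 2 overlapping matches on opposite strands. Hspd1 and Hspe1 lie head to head on chromosome 1, so the window of Hspd1 covers nearly the same bases on the opposite strand. A match is a description of these letters and no evidence of binding.

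Levels are in FPKM, fragments per kilobase of exon and per M reads, and can therefore be compared between genes. Each library held an estimated 75.7 to 81.1 M reads, a depth inferred from the deposited values. The markers of cardiomyocytes were present in every group, with all 10 genes at a mean of 1 FPKM or more. Markers of fibroblasts and matrix (10 genes, none at 0) summed to 135 to 3530 FPKM in HXP, 679 to 3932 in MI and 180 to 277 in control libraries. MI 5 also carried lung epithelium markers, 1215 FPKM over 9 genes against at most 2.78 in every other library. Mitochondrial transcripts took 20.5% to 45.5% of reads in HXP, 20.4% to 33.2% in MI and 36.4% to 42.6% in control libraries, and since FPKM is a share of all reads this moves the scale of every other gene. The median fold change over all 13710 genes tested was 0.27 for MI minus control, -0.12 for HXP minus MI and 0.16 for HXP minus control (log2 scale). In bulk tissue, fewer cells of a type and less RNA per cell cannot be told apart.

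Small heat shock proteins were the class with the highest summed level in every library, 858 to 1240 FPKM in HXP, 1079 to 1431 in MI and 974 to 1307 in control libraries. Summed over all 73 genes the chaperones reached 2310 to 2916 FPKM in HXP, 2599 to 3028 in MI and 2369 to 2740 in control libraries, with overlap of all 3 groups. Hspb7, a small heat shock protein of heart and skeletal muscle, had the highest level of all. It averaged 624 ± 90.4 FPKM in HXP, 665 ± 114 in MI and 599 ± 73.7 in control libraries (SD, n = 6 each). Next came Hsp90ab1, the constitutive cytosolic Hsp90, at 395 ± 35.5 FPKM in HXP, 395 ± 33.4 in MI and 345 ± 14.3 in control libraries. In HXP hearts Hspa8, the constitutive Hsp70 (204 ± 16.9 FPKM), Hspb8 (173 ± 28.5) and Hspb6 (142 ± 13.3) followed, then the mitochondrial Hspa9 (134 ± 21.1) and Hspd1 (111 ± 17.9). Neighbours in that order from Hspa8 down overlapped in their spread, and in control hearts Hspb6 (235 ± 67.6 FPKM) stood above Hspb8 (198 ± 10.8) and Hspa8 (181 ± 34.3), again with overlapping spread. Cytosolic J-domain proteins were led by Dnaja2, a partner of Hspa8, at 73.8 ± 7.05 FPKM in HXP, 69.9 ± 2.69 in MI and 76.9 ± 3.09 in control libraries. Dnajc8, a splicing-associated J-domain protein, led the remaining class C genes at 18.2 ± 3.43 FPKM in HXP, 17.5 ± 1.24 in MI and 17.3 ± 2.44 in control libraries.

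Of the 73 genes, 65 reached a mean of 0.5 FPKM over the 18 libraries and were tested. The other 8 were Dnajb3, Dnajb7, Dnajb13, Dnajc5b, Dnajc5g, Dnajc6, Dnajc22 and Hspb9, none of which exceeded 0.402 FPKM in any library. Dnajb8 carries such a symbol and is not analysed here. Of the tested genes, 3 share the symbol start without being small heat shock proteins (Hspbp1, Hspbap1 and Hspb11), while the small heat shock protein Cryab falls outside the rule by its name.

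On the deposited scale, most chaperones called higher in MI hearts than in control hearts were those of the ER, and the 3 called lower were mitochondrial. With limma and Benjamini-Hochberg adjustment over all genes, 15 of the 65 genes were called higher in MI (23.1%) and 3 lower (4.62%). Over all 13710 genes 40.1% were called higher and 3.21% lower (43.3% in either direction), so the chaperones as a whole held fewer higher calls than the background. Their median fold change was 0.15, against 0.27 over all genes (log2 scale). Without MI 5, the higher calls that held were those of Dnajb11, Dnajc1, Dnajc3, Dnajc14, Dnajc18, Hsp90aa1 and Hspa2, 7 genes, and no lower call held. Over all genes the calls also dropped without MI 5, to 18.4% higher and 0.926% lower. Values of 9 genes lay above every control library in all 6 MI libraries and those of 3 lay below, against 27.9% and 1.39% of all genes.

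In MI hearts 9 of the 13 ER genes (69.2%) were called higher and none lower, with a median fold change of 0.44. Of the other 52 genes 6 were called higher (11.5%) and 3 lower, with a median of 0.12. The ER count depended on the scaling. It was 3 higher and 1 lower (Dnajb9) of 13 under median-ratio scaling, quantile normalization and voom, with medians of 0.11, 0.07 and 0.17. Of all genes 17.5%, 13.2% and 16.3% were then called higher, and 15.1%, 17.3% and 15.4% lower. Per non-mitochondrial read the ER count was 5 and 1 (median 0.22), against 22.3% and 9.58% of all genes. After a correction for GC content it was 4 and 0 (median 0.17), against 16.7% and 14.3% of all genes. Summed over the 13 genes, the ER class reached 196 to 284 FPKM in MI libraries, against 177 to 207 in control libraries, with only MI 6 inside the control range. Summed markers of other cells also reached higher values in MI than in control libraries. The matrix markers are given above, and 10 macrophage and monocyte markers summed to 105 to 1005 FPKM in HXP, 241 to 1093 in MI and 161 to 224 in control libraries. The 8 B and plasma cell markers summed to 6.94 to 1178 FPKM in HXP, 17.9 to 1036 in MI and 6.15 to 24.5 in control libraries. The part of these cells in the result was not tested. Without MI 5 the ER count was 5 of 13, against 18.4% of all genes called higher. Without MI 4 and MI 5 it was 0 of 13, with a median of 0.43. The called genes over the whole table dropped to 0 in that setting too.

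Dnajc3 (ENSMUSG00000022136, chr14:118937976-118981697, plus strand), which also restrains the eIF2-alpha kinases, was lowest at 11.6, median 16.9 and highest at 22.5 FPKM in MI libraries, against 8.62, 9.41 and 10.5 in control libraries. All 6 MI libraries lay above every control library. The fold change was 0.75 with a standard error (SE) of 0.19 (adjusted p = 0.0147), and the gene stayed called whichever single library was left out. Dnajc10 (ERdj5, a disulfide reductase of the ER) had 9.94, 14.6 and 18.6 FPKM in MI libraries, against 8.0, 8.38 and 9.34 in control libraries. The groups again did not overlap (fold change 0.67, SE 0.20, adjusted p = 0.0196), although the call was lost without MI 5 (adjusted p = 0.052). Dnajb11 (ERdj3, a luminal co-chaperone of BiP) had 12.2, 14.1 and 17.7 FPKM in MI libraries, against 8.03, 10.1 and 11.0 in control libraries, without overlap. Its fold change was 0.54 (adjusted p = 0.0161).

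**Figure D1:**
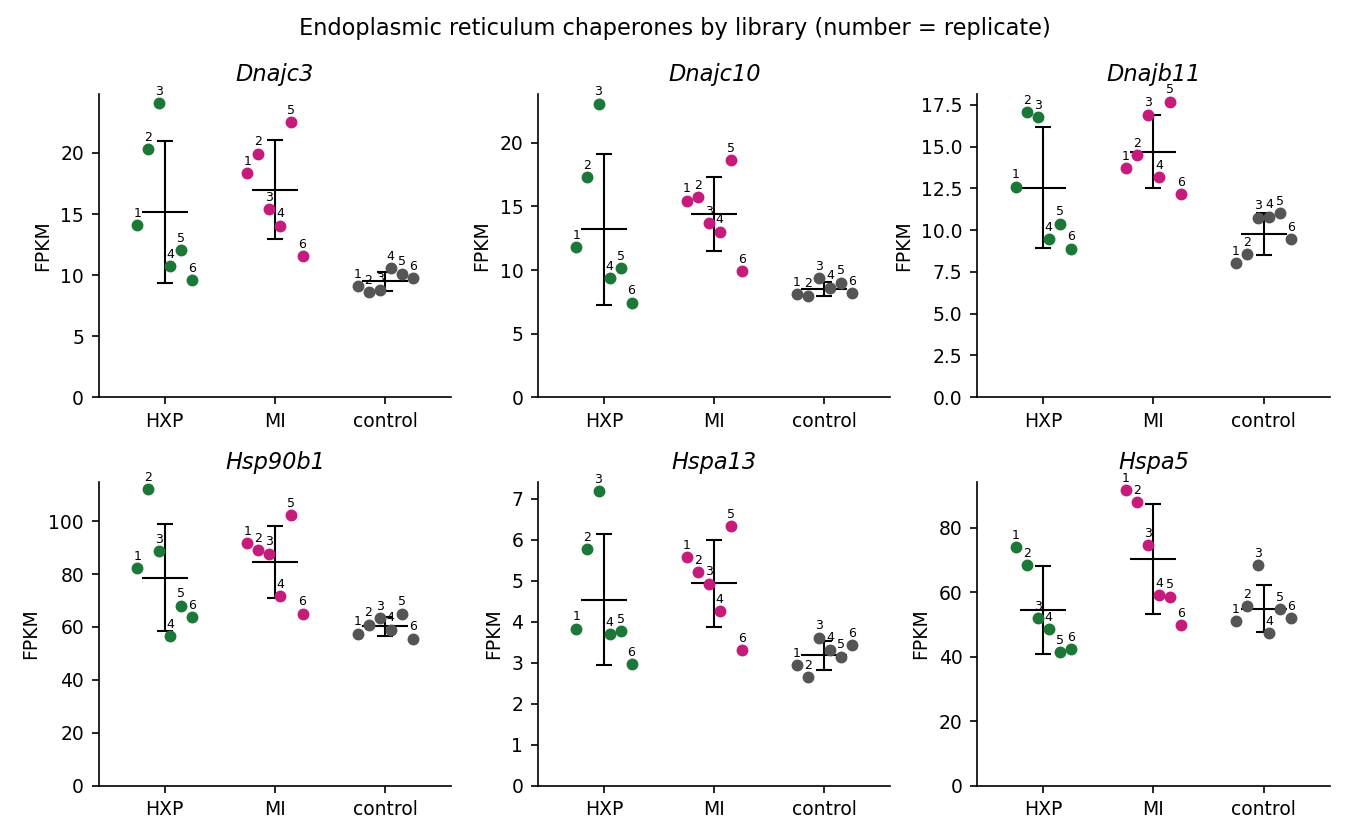
Level of 6 ER chaperones in each library (y axis, FPKM, from 0), for HXP, MI and control. Points are libraries with their replicate number, bars the mean and SD of 6 libraries; Dnajc3, Dnajc10 and Dnajb11 show every MI library above every control library, and the HXP libraries spread over both ranges.

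Hsp90b1 had 65.0, 88.4 and 102 FPKM in MI libraries as the lowest, median and highest, against 55.6, 59.9 and 65.1 in control libraries. Only MI 6 reached the control range (fold change 0.47, SE 0.14, adjusted p = 0.021, and 0.055 without MI 5). Hspa5 had 49.7, 66.9 and 91.7 FPKM in MI libraries, against 47.2, 53.4 and 68.4 in control libraries, and its fold change of 0.33 was not called (adjusted p = 0.117). It was called without MI 6 (adjusted p = 0.0471) and turned negative under median-ratio scaling and voom. MI 1, MI 2 and MI 3 lay above every control library, and MI 4, MI 5 and MI 6 lay among them. Dnajb9 (ERdj4), a strongly induced target of the unfolded protein response, had 13.1, 14.4 and 17.2 FPKM in MI libraries, against 12.3, 15.2 and 17.1 in control libraries, and was not called (adjusted p = 0.859). It was called lower under median-ratio scaling, quantile normalization, voom and scaling to non-mitochondrial reads. Of the 3 carriers of the ER element printed above, Dnajc3 and Hsp90b1 passed the test on the deposited scale and Hspa5 did not. Dnajc3 stayed called under each of the 5 rescalings given above, and the call of Hsp90b1 was lost under each of them.

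The remaining ER genes called higher lay at lower levels. Hspa13 (an ER Hsp70-like ATPase) had a fold change of 0.49, Dnajc14 (a membrane protein that handles receptors leaving the ER) 0.59 and Dnajc1 (an ER-membrane J-domain protein) 0.44. Dnajb14 and Dnajc18, J-domain proteins of the ER membrane, had 0.35 and 0.29, and turned negative under quantile normalization, Dnajc18 also under median-ratio scaling and voom. Adjusted p-values of these 5 genes ran between 0.0161 and 0.0244, and Dnajc1 was above every control library in 6 of 6 MI libraries, the others in 5. Of Dnajc14, 17% of the exon bases are shared with Ormdl2 on the opposite strand, and the strand setting of the counting is not given in the sources used here. Dnajb12 and Dnajc16 were not called (adjusted p = 0.297 and 0.435).

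Among cytosolic chaperones, Hsp90aa1 and Hspa2 rose in MI hearts. Hsp90aa1, the inducible Hsp90 (chr12:110690605-110702728), had 31.7, 44.0 and 73.0 FPKM in MI libraries, against 22.4, 27.0 and 33.3 in control libraries. The highest value was that of MI 5, and only MI 6 lay among the controls (fold change 0.76, SE 0.19, adjusted p = 0.0146). Hspa2, an Hsp70 known from male germ cells and also found elsewhere, had 4.0, 4.54 and 6.82 FPKM in MI libraries, against 1.85, 2.32 and 2.77 in control libraries. The groups did not overlap (fold change 0.86, SE 0.22, adjusted p = 0.0147), and both genes stayed called whichever single library was left out. Hspa14 (ribosome-associated Hsp70L1) and Hspa4 (an Hsp110-type exchange factor) were called at smaller fold changes of 0.34 and 0.22, each with 6 of 6 MI libraries above all controls. Dnajc7, a J-domain protein that binds both Hsp70 and Hsp90, was called at 0.21 and Hspb11, an intraflagellar transport protein, at 0.38. Their adjusted p-values were 0.024, 0.0238, 0.0428 and 0.0453. Hspa4 and Dnajc7 turned negative under each rescaling given below and Hspa14 under quantile normalization, and the calls of Dnajc7 and Hspb11 were lost without most single MI or control libraries. Hsp90ab1, at the far higher level given above, had a fold change of 0.19 that was not called (adjusted p = 0.0596) and turned negative under each rescaling. No J-domain protein of the cytosolic and nuclear A and B classes was called in the 3-group fit on the deposited scale, 0 of 8. An unadjusted p below 0.05 was found for 1. Dnaja2, with all 6 MI libraries below every control library, was called lower under each of the 5 rescalings and with only the 2 groups compared. Dnaja4 was called lower under median-ratio scaling, quantile normalization, voom and GC correction. The rescalings called 9.58% to 17.3% of all genes lower.

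The mitochondrial class went the other way. In MI hearts 3 of its 10 genes were called lower, against the 3.21% of all genes given above, and none higher, with a median fold change of -0.19. Under each of the 5 rescalings 6 of the 10 were called lower (Dnajc15, Dnajc19 and Dnajc30 besides those 3), with medians of -0.53 under median-ratio scaling, -0.51 with quantile normalization, -0.59 with voom, -0.42 per non-mitochondrial read and -0.41 after GC correction. Median-ratio scaling called 15.1% of all genes lower. The class summed to 302 to 400 FPKM in MI libraries, against 401 to 431 in control libraries, so that the groups did not overlap. Mitochondrial transcripts were also a smaller share of MI reads, as given above, and cardiomyocyte markers summed to 12069 to 16492 FPKM in MI and 15251 to 16864 in control libraries; their part in the result was not tested. Hspd1 (Hsp60, the mitochondrial chaperonin) had 88.6, 98.6 and 124 FPKM in MI libraries, against 124, 129 and 130 in control libraries, with 5 of 6 MI libraries below all controls (fold change -0.32, SE 0.11, adjusted p = 0.0266). Hspe1 (Hsp10), which shares the promoter region with Hspd1, had 37.7, 48.4 and 56.2 FPKM in MI libraries, against 43.9, 47.1 and 52.0 in control libraries. For Hspe1, 2 MI libraries lay above and 2 below all control libraries, and it was not called (adjusted p = 0.965). Hspa9 (mortalin, the mitochondrial Hsp70) had 96.9, 119 and 130 FPKM in MI libraries, against 136, 139 and 162 in control libraries, without overlap (fold change -0.28, SE 0.10, adjusted p = 0.0393). The control value of 162 was that of control 5, the others lay between 136 and 140, and the call of Hspa9 was also lost without control 5 or any of 8 other single libraries. Dnajc28, a J-domain protein placed here with the mitochondrial ones, had 5.74, 8.67 and 10.4 FPKM in MI libraries, against 11.6, 12.4 and 13.2 in control libraries. Its groups did not overlap either (fold change -0.52, SE 0.15, adjusted p = 0.0188). Without MI 5 none of the 3 was called, and without MI 2 or without MI 3 only Dnajc28 was. The calls of Hspd1 and Hspa9 were also lost with MI 1 and MI 2 averaged, a pair more alike than any other of the same group. Further fold changes below 0 that were not called were -0.14 for Dnaja2, -0.17 for Dnajc15, -0.23 for Dnajc19, -0.22 for Dnajc30 and -0.38 for Hspb6, with adjusted p-values between 0.117 and 0.253.

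These counts depended on how libraries were scaled. Under median-ratio scaling, which sets the median change near 0, the split was 5 higher and 15 lower in place of 15 and 3. Over all genes it was then 2395 higher and 2068 lower, in place of 5494 and 440. With quantile normalization it was 5 and 14, with voom 5 and 16, per non-mitochondrial read 7 and 9, and after a correction for GC content 6 and 11. Higher calls of Dnajc3, Dnajc10, Hsp90aa1 and Hspa2, and lower calls of Dnajc28, Hspa9 and Hspd1, were made without rescaling and in all 5 of these settings. In the 10 libraries whose library numbers form 1 run (HXP 2 and 5, 5 MI and 3 control) no gene of the 65 was called. Of all genes 0.540% were called higher there and 0.0365% lower. Dnajc3 kept 0.64 and Hsp90aa1 0.73 in that run (adjusted p = 0.0751 and 0.0595).

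**Figure D2:**
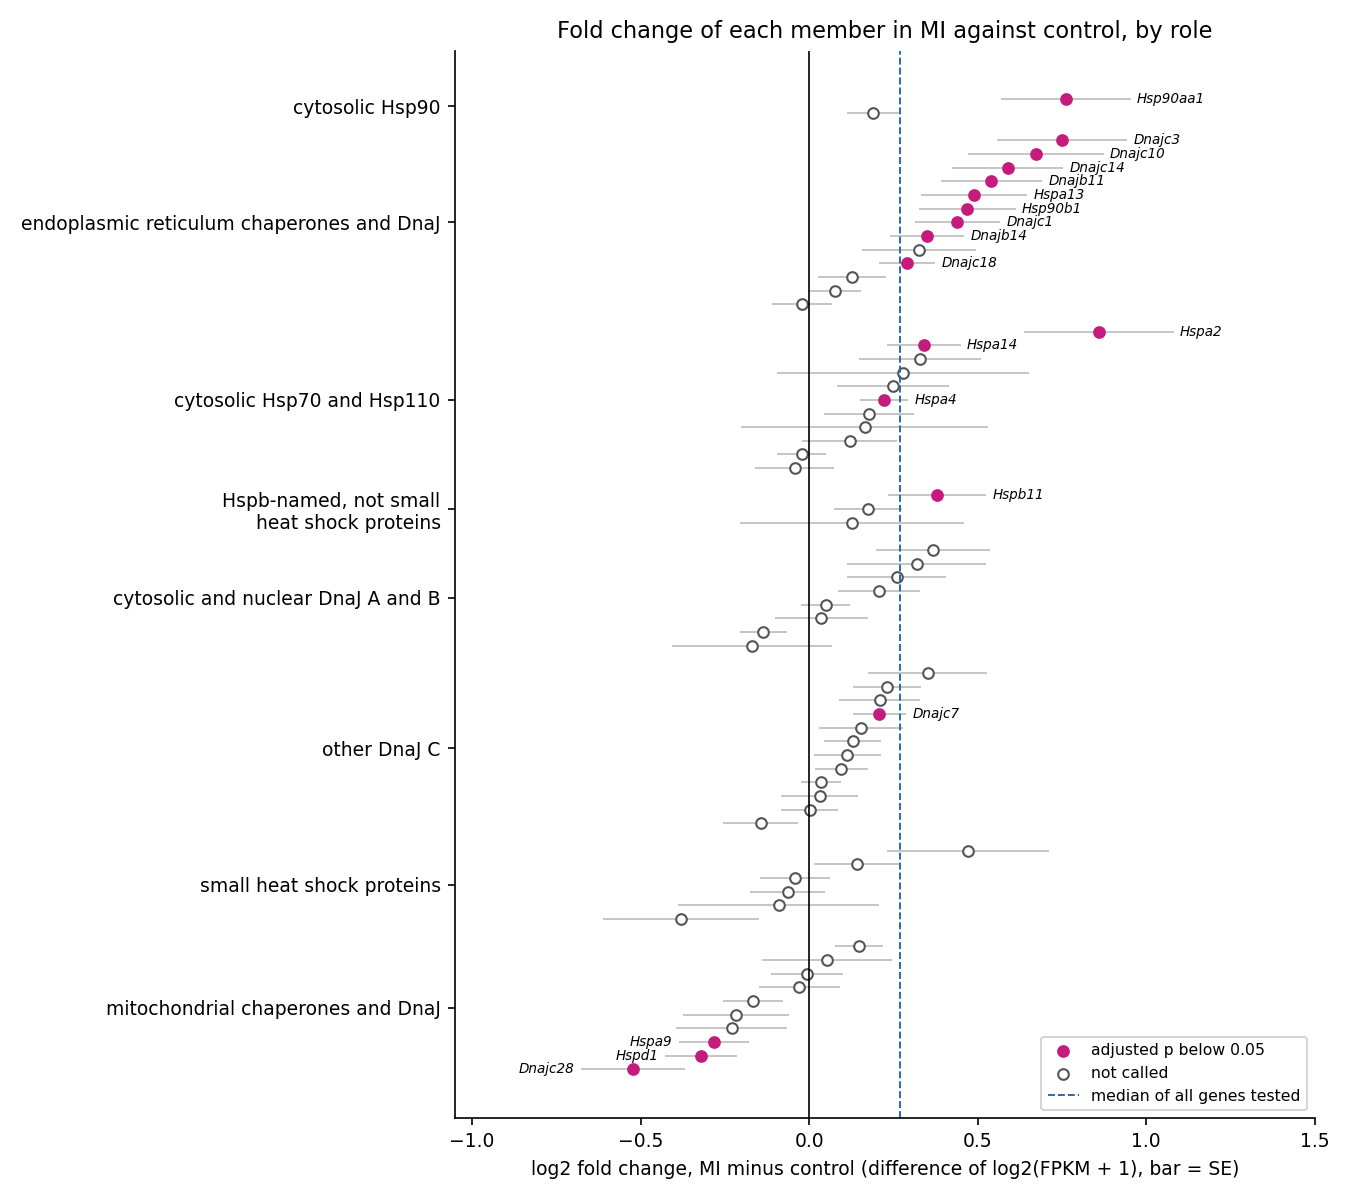
Fold change of each of the 65 tested genes in MI against control (x axis, difference of log2(FPKM + 1), bars = SE), grouped by role and ordered by the median of the class. Filled points passed an adjusted p of 0.05 and are named; 9 of 13 ER genes are filled and right of 0, the 3 filled points left of 0 are mitochondrial, and the dashed line marks the median of all genes, 0.27.

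Small heat shock proteins did not pass the test in MI hearts on the deposited scale. There 0 of 6 were called, and 0 had an unadjusted p below 0.05. Hspb3 was called lower under each of the 5 rescalings. Hspb6 and Hspb8 were called lower under median-ratio scaling, voom and GC correction. The rescalings called 9.58% to 17.3% of all genes lower. Hspb1 (Hsp27), an inducible member, had 61.1, 73.8 and 150 FPKM in MI libraries, against 50.6, 62.2 and 71.0 in control libraries, with 4 of 6 MI libraries above all controls. Its fold change of 0.47 came with an adjusted p of 0.114. Hspb6 (Hsp20) had 111, 180 and 261 FPKM in MI libraries, against 150, 267 and 294 in control libraries, which overlapped.

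Classical heat-inducible genes varied widely between libraries of the same group. Hspa1a and Hspa1b, the inducible cytosolic Hsp70 genes, lie side by side on chromosome 17, and their transcripts match in 99.3% of 2197 aligned bases, so reads can be split between them. Summed over the pair, the levels averaged 1.30 ± 0.917 FPKM in HXP, 4.81 ± 4.57 in MI and 3.55 ± 3.19 in control libraries (SD, n = 6 each). Hspa1a alone had 0.256, 0.696 and 1.42 FPKM in HXP libraries, 0.644, 1.48 and 6.52 in MI libraries and 0.715, 1.26 and 5.03 in control libraries. Its highest values were those of MI 5, control 1 and MI 3, and the lowest those of HXP 5, HXP 6 and HXP 4. An exact two-sided permutation test of the summed level gave p = 0.0455 for HXP against MI, 0.0693 for HXP against control and 0.641 for MI against control, and p = 0.104, 0.104 and 0.641 after adjustment over the 3 comparisons. The smallest p such a test of 6 against 6 can give is 0.00216.

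MI 5 was also highest in Dnajb1 (Hsp40, the J-domain partner of inducible Hsp70), at 12.8 FPKM, in Hsph1 at 10.1 and in Dnaja1 at 14.8. In Dnajb1 the libraries ran from 4.83 to 8.66 FPKM in HXP, from 5.02 to 12.8 in MI and from 4.07 to 8.35 in control hearts. In Hsph1 they ran from 4.75 to 7.18 FPKM in HXP, from 4.92 to 10.1 in MI and from 4.60 to 7.83 in control hearts. All 3 groups overlapped in both genes. Hspa8 had 190, 197 and 236 FPKM in HXP libraries, 156, 197 and 265 in MI libraries and 132, 191 and 214 in control libraries, which also overlapped. In MI against control the adjusted p-values of Hspa1a, Hspa1b, Dnajb1, Hsph1 and Hspa8 lay between 0.203 and 0.722.

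**Figure D3:**
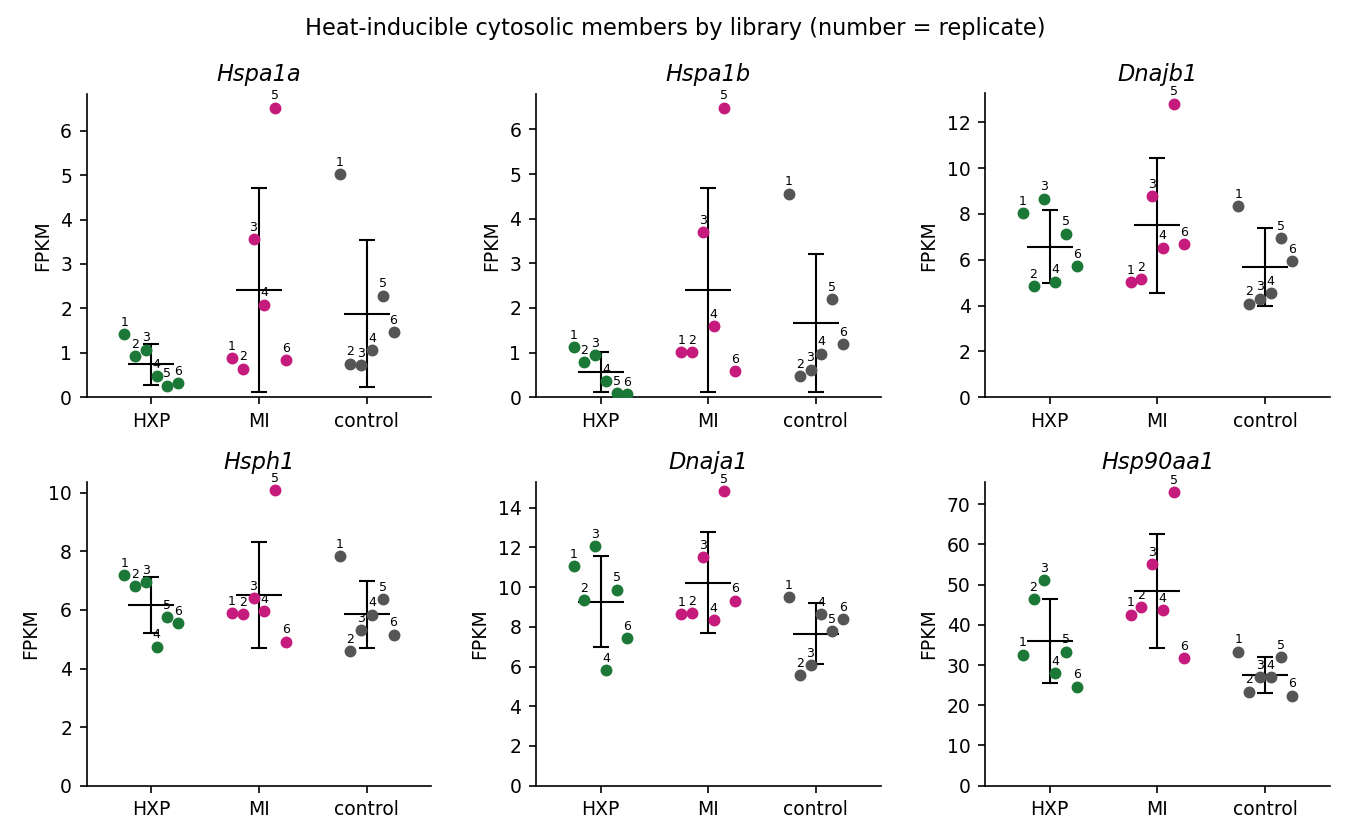
Level of 6 heat-inducible cytosolic genes in each library (y axis, FPKM, from 0), for HXP, MI and control. Points are libraries with their replicate number, bars the mean and SD of 6 libraries; MI 5 is the highest library in every panel, and control 1 is the highest control library in every panel.

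Between HXP and MI hearts no chaperone was called. With limma the count was 0 of 65 genes, beside 0% of all 13710. An unadjusted p below 0.05 was found for 11 of the 65 (16.9%), against 13.8% of all genes. Under voom 0 of the 65 were called, against 0.0146% of all genes called lower and 0% called higher. No gene had all 6 HXP libraries above or below every MI library, against 0.117% and 0.306% of all genes. Most estimates were below 0: 16 of 65 fold changes were positive, and their median was -0.10, against -0.12 over all genes. The 13 ER genes had a median of -0.13 and the 6 small heat shock proteins one of -0.20, with all 6 below 0.

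Largest among the fold changes for HXP against MI were -0.94 for Hspa1b, -0.90 for Hspb2, -0.87 for Hspbp1, -0.78 for Hspa1a and -0.62 for Hspa2 (adjusted p between 0.258 and 0.361). Hspb2 (a small heat shock protein of muscle) had 11.7, 31.6 and 68.5 FPKM in HXP libraries as the lowest, median and highest, against 43.0, 55.8 and 60.7 in MI libraries. HXP 5 and HXP 6 were lowest at 13.6 and 11.7 FPKM, while HXP 1 was the highest of all 18 libraries. Without HXP 1, Hspb2 was the 1 gene of the 65 called in this comparison, against 0.503% of all genes called lower and 0.0146% called higher. Hspbp1, a nucleotide exchange factor of Hsp70, had 1.25, 7.19 and 14.4 FPKM in HXP libraries, against 8.52, 11.3 and 13.2 in MI libraries, with HXP 5 at 2.47 and HXP 6 at 1.25. Hspa2 had 1.00, 3.24 and 5.68 FPKM in HXP libraries, against 4.0, 4.54 and 6.82 in MI libraries, with 4 of 6 HXP libraries below all MI libraries.

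Smaller estimates were -0.53 for Dnajb4, -0.51 for Dnajc19, -0.51 for Dnajc30, -0.45 for Hspa12b (an Hsp70-like protein of endothelium), -0.42 for Hsp90aa1 and -0.36 for Hspa5 (adjusted p between 0.256 and 0.359). In the opposite direction the 6 smallest p belonged to Hspa9 (0.19), Dnajc28 (0.20), Dnajc7 (0.12), Dnajc2 (0.12, a ribosome-associated J-domain protein), Dnajc25 (0.07) and Dnaja2 (0.07), with adjusted p between 0.41 and 0.602. For Hspa9 the HXP libraries had 105, 134 and 160 FPKM and the MI libraries 96.9, 119 and 130, with 4 of 6 HXP libraries above all MI libraries.

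The summed ER class differed between HXP libraries in nearly the order of the matrix markers, as did Dnajc3 and Dnajc10. Not every ER gene did so. Hspa5 was highest in HXP 1 (74.0 FPKM) and stood at 51.9 FPKM in HXP 3. Dnajb9 stood at 16.4 FPKM in HXP 3 and at 16.2 in HXP 6. HXP 3 and HXP 2 were as high as the MI libraries in Dnajc3 (24.1 and 20.3 FPKM) and in Dnajc10 (23.1 and 17.3), and HXP 6 lay within or below the control range (9.57 and 7.43). The summed ER class ran from 176 to 290 FPKM in HXP libraries, across the ranges of 196 to 284 in MI and 177 to 207 in control libraries. Col1a1, a collagen of fibroblasts, stood at 345 and 186 FPKM in HXP 3 and HXP 2, and at 2.29 in HXP 6. The part of tissue composition in these levels was not tested.

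**Figure D4:**
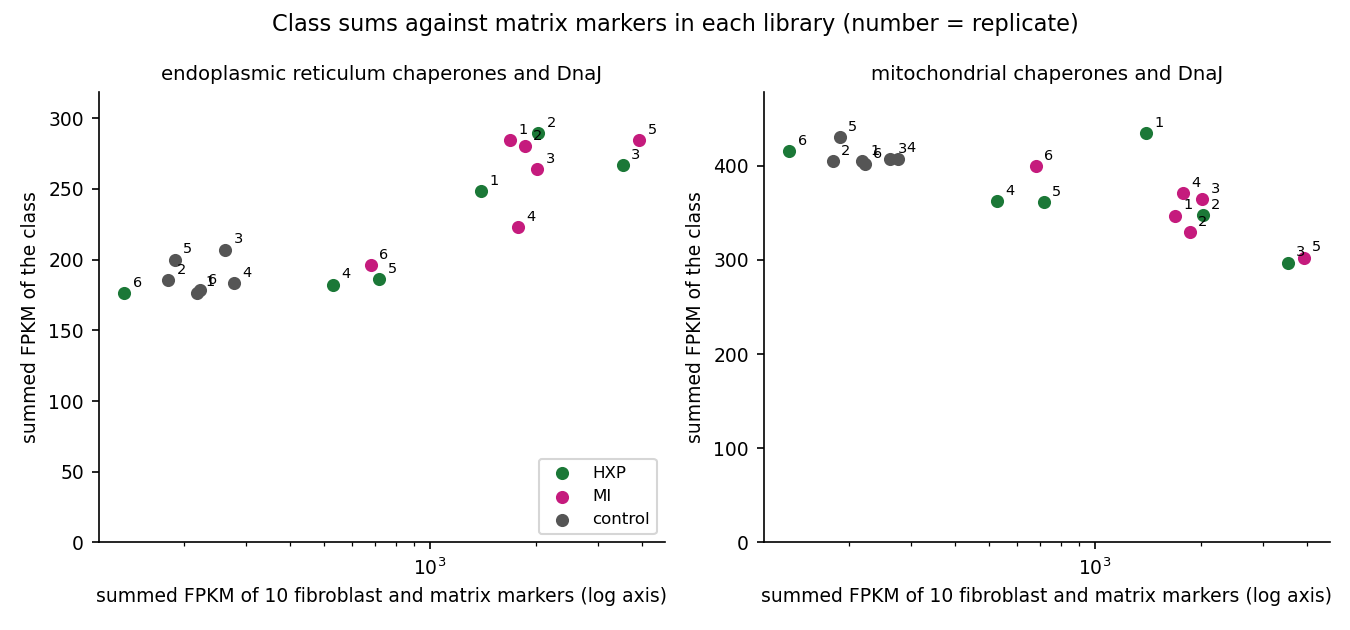
Summed FPKM of the ER class (left) and of the mitochondrial class (right) in each library (y axes, from 0) against the summed FPKM of 10 fibroblast and matrix markers (x axes, log scale), points numbered by replicate and coloured by group. The HXP libraries spread from 135 to 3530 FPKM of matrix markers, beyond the control range of 180 to 277 on both sides, and ER sums above 207 FPKM occur only in libraries with matrix sums above that range.

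Against control hearts, HXP hearts showed no called chaperone, and the smallest p-values were those of 2 mitochondrial J-domain proteins, both lower in HXP by estimate. With limma 0 of 65 genes were called, beside 0.0948% of all genes called higher and 0.219% called lower (0.314% in either direction). An unadjusted p below 0.05 was found for 21 of the 65 (32.3%), against 33.1% of all genes. Under voom 7 of the 65 were called lower and 0 higher, against 5.47% and 3.05% of all genes. The median fold change was 0.07, against 0.16 over all genes. Dnajc19, a J-domain protein of the inner mitochondrial membrane, had 2.42, 3.69 and 5.38 FPKM in HXP libraries, against 5.70, 7.02 and 7.26 in control libraries. It was the 1 gene of the 65 whose HXP libraries all lay below every control library, against 0.569% of all genes, and 0 of 65 lay wholly above, against 1.13% (fold change -0.74, SE 0.17, adjusted p = 0.0528). Mutations of human DNAJC19 cause a dilated cardiomyopathy with ataxia. Dnajc30, a mitochondrial J-domain protein tied to ATP synthase and complex I, had 6.52, 8.44 and 11.9 FPKM in HXP libraries, against 11.8, 14.8 and 17.6 in control libraries, with 5 of 6 HXP libraries below all controls (fold change -0.73, SE 0.16, adjusted p = 0.0528).

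Both genes crossed the threshold in other settings. Dnajc19 and Dnajc30, with Hspb2, were called lower in all 5 rescaled settings (adjusted p = 0.00227 and 0.00409 for the J-domain pair under median-ratio scaling), and Dnajc19 and Dnajc30 also without HXP 1, without HXP 6 or without MI 3. In the run of 10 libraries their adjusted p-values were 0.184 and 0.177 at fold changes of -0.84 and -0.92. Of Dnajc30, 26.2% of the exon bases are shared with Bud23 on the opposite strand, and of Hspb2 30.2% with Cryab.

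Hspb2 had a fold change of -0.99, Hspbp1 of -0.74, Dnajb4 of -0.70 and Hspb6 of -0.67 (adjusted p = 0.0881, 0.135, 0.0963 and 0.0975). Under median-ratio scaling and voom each of them was called lower, against 5.42% and 5.47% of all genes. For Hspb2 and Hspbp1 the estimate rested on HXP 5 and HXP 6: without them the fold changes were -0.45 and -0.13. These 2 genes are rich in GC, 59.6% and 59.9% of the bases of their longest transcripts, against a median of 49.8% over all genes tested. Dnajc19 has 40.3%, and the 8 chaperones lower at an unadjusted p below 0.05 had a median of 50.3%. Hspb1 and Hspb7, with 61.7% and 57.5%, had fold changes of 0.23 and 0.06. After GC correction Hspb2, Hspbp1 and Dnajb4 were called lower, against 4.08% of all genes. Hspb6 and Dnajb4, a cytosolic J-domain protein, lay at 2 separate levels. Hspb6 lay between 111 and 155 FPKM in 11 libraries and between 222 and 294 in the other 7, and the lower set held 6 HXP, 3 MI and 2 control libraries. Dnajb4 lay between 4.71 and 6.85 FPKM in 10 libraries, 6 HXP, 3 MI and 1 control, and between 10.3 and 15.2 in the other 8. In neither gene did an HXP library reach the higher level, although control libraries lay at both.

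**Figure D5:**
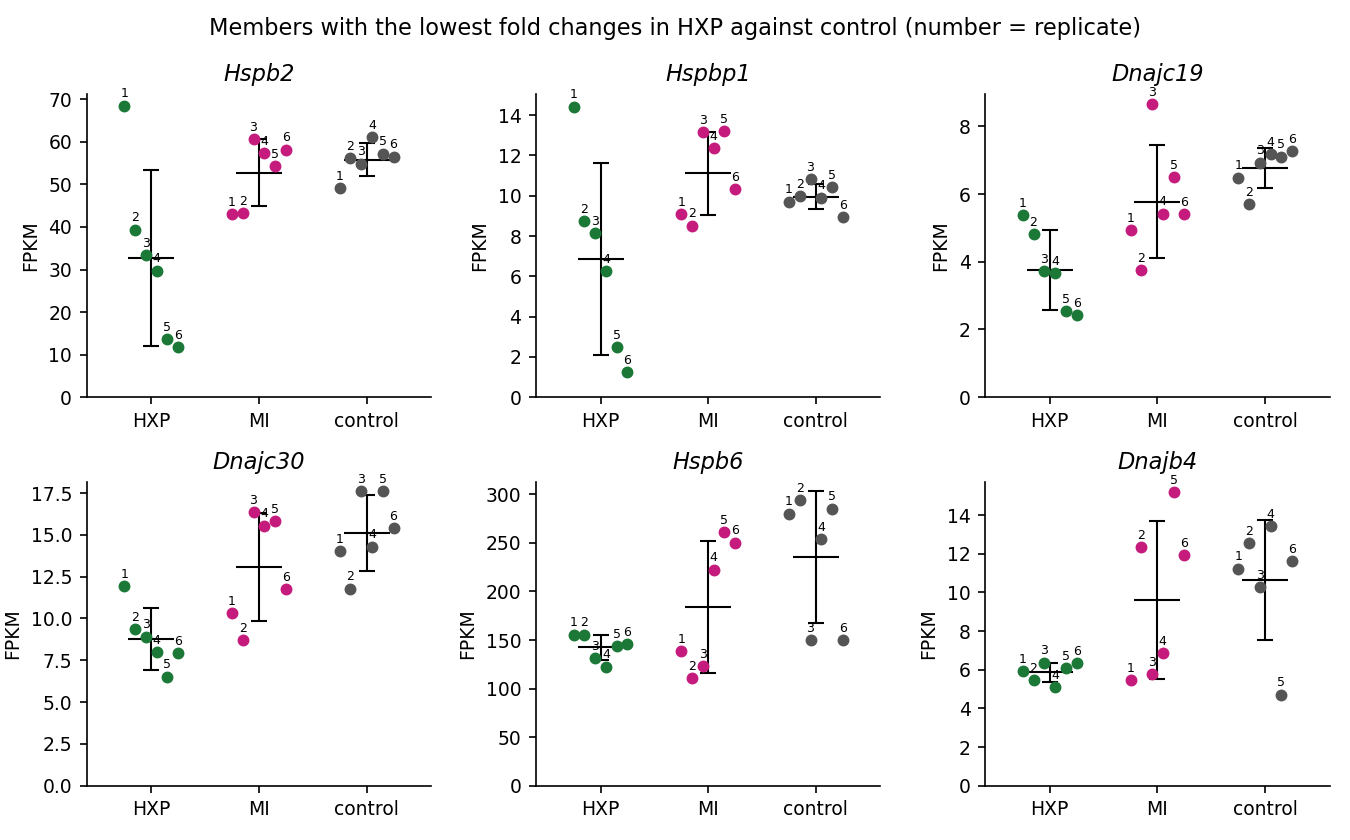
Level of the 6 genes with the lowest fold changes in HXP against control in each library (y axis, FPKM, from 0), for HXP, MI and control. Points are libraries with their replicate number, bars the mean and SD of 6 libraries; all HXP points of Dnajc19 lie below all control points, HXP 5 and HXP 6 are lowest in Hspb2 and Hspbp1, and all HXP points of Hspb6 and Dnajb4 lie in the lower of 2 levels.

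On the positive side of HXP against control, Dnajc7 had a fold change of 0.33, Dnajc3 of 0.55, Dnajc1 of 0.34, Dnajc14 of 0.40, Dnajc18 of 0.20 and Dnajc10 of 0.48 (adjusted p between 0.0676 and 0.123). Dnajc7 had 13.4, 15.8 and 19.4 FPKM in HXP libraries, against 12.1, 12.7 and 13.7 in control libraries, with 5 of 6 HXP libraries above all controls. It was the 1 gene of the 65 called higher without HXP 4, against 0.0656% of all genes. Of the 13 ER genes 8 (61.5%) had an unadjusted p below 0.05 here, against 33.1% of all genes. Without HXP 6 the count of higher calls was 7 of the 65 and that of lower calls 5, against 28.1% and 2.78% of all genes. Without HXP 5 and HXP 6 they were 15 and 4, against 40.9% and 2.65% of all genes. Among those 15 were the ER genes Dnajb11, Dnajb14, Dnajc1, Dnajc3, Dnajc10, Dnajc14, Dnajc18, Hsp90b1 and Hspa13. HXP and MI are each set against the same control libraries, and HXP against the same MI libraries.

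Partner genes of the chaperones were read from lists of textbook pathways. In MI hearts the ER folding and unfolded protein response list had 18 of 23 tested genes (78.3%) called higher and none lower, with a median fold change of 0.74, against 40.1% higher, 3.21% lower and a median of 0.27 over all genes. Under the 5 rescalings 11 to 13 were higher and 0 to 2 lower, with medians between 0.38 and 0.50. Pdia4, a disulfide isomerase, stood at 23.5 ± 6.44 FPKM in MI and 10.3 ± 1.19 in control libraries (fold change 1.08, adjusted p = 0.0147). The stress transcription factor Atf4 stood at 31.4 ± 9.05 FPKM in MI and 17.9 ± 2.13 in control libraries (0.74, adjusted p = 0.0156), and Xbp1, whose spliced form acts in the IRE1 branch and which is measured here over all its transcripts, at 19.8 ± 5.18 in MI and 11.1 ± 2.50 in control libraries (0.77, adjusted p = 0.0155). Calr, the lectin chaperone calreticulin, stood at 118 ± 19.8 FPKM in MI and 72.5 ± 4.69 in control libraries (0.68, adjusted p = 0.0146).

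Lists outside the ER stood against the same background of 40.1% higher calls and a median of 0.27. Of 31 co-chaperones of Hsp70 and Hsp90, 5 were called higher (Bag5, Fkbp5, Unc45a, Pih1d1 and Sugt1; 16.1%) and 1 lower, with a median of 0.15. Fkbp5, a co-chaperone induced by glucocorticoids, stood at 5.66 ± 2.74 FPKM in MI and 2.30 ± 1.54 in control libraries (1.01, adjusted p = 0.0266). Fkbp4, its Hsp90-bound relative, was lower at 69.7 ± 19.0 FPKM in MI and 98.1 ± 9.43 in control libraries (-0.52, adjusted p = 0.0358). Of 14 subunits of the cytosolic chaperonin and prefoldin, 4 were called higher (Cct2, Cct3, Cct5 and Cct8; 28.6%), with a median of 0.11. Of 4 tested heat shock factors and regulators, 2 were called higher: Hsf2 at 1.68 ± 0.097 FPKM in MI and 1.41 ± 0.129 in control libraries, and Hsbp1, a binding protein of heat shock factor 1, at 52.8 ± 8.54 in MI and 39.4 ± 3.56 in control libraries. Of 13 mitochondrial chaperones and proteases 1 was called higher, the protease Htra2, with a median of 0.01. Of 19 immediate early genes 10 were called higher (52.6%), with a median of 0.52. These counts depended on the scaling as well. Under median-ratio scaling 0 co-chaperones were higher and 10 lower, 0 chaperonin and prefoldin subunits higher and 5 lower, no heat shock factor called, 0 mitochondrial genes higher and 7 lower, and 4 immediate early genes higher and 0 lower. Their medians were then -0.19, -0.21, -0.11, -0.36 and 0.27. The alpha-crystallin Cryab was not called. With limma, none of the 105 tested list genes was called in HXP against MI or in HXP against control, beside the called shares given above. An unadjusted p below 0.05 was found for 23 and 32 of them, against 13.8% and 33.1% of all genes. In these 2 comparisons voom calls were counted for the chaperones only.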

How the data were processed

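The authors deposited 1 file per library with 1 value per Ensembl gene. The deposited values are in FPKM, inferred from the values because the header names no unit: multiplied by exon length, 97.6% to 98.0% of the low values per library came out as whole reads, within 0.1 of a read. Per the submitters' processing notes the build was GRCm38 and limma was used. No source used here gives the aligner, the counting tool or its strand setting. IDs were matched to GENCODE M21 (34097 matched, 53 not).

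From these values, log2(FPKM + 1) was modelled in limma 3.58.1 (R 4.3.3; 3 groups in 1 model, trend on, robust off, two-sided) for the 13710 genes averaging 0.5 FPKM or more. A call is an adjusted p (Benjamini-Hochberg) below 0.05. A fold change is a difference on this log2 scale and understates changes near 1 FPKM. Whether each library is a separate mouse is not stated beyond 6 mice per group, so p-values cover only library-to-library spread. The inferred depth of 75.7 to 81.1 M reads makes counting error small beside that spread for all but the lowest values. Voom, an alternative, used reads recovered from the steps, with scaling factors by the trimmed-mean method. The fit was tested on simulated data. Pseudocount, filter, normalization, covariates and left-out libraries were varied.

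Genes, role classes and lists were chosen with earlier results of these data known. Values or fit statistics are given for 9 heat-inducible and 6 ER genes, the highest gene of each class, and the 8 (MI against control) or 6 (other comparisons) smallest p per direction, and other genes by range and count. Partner genes named from the lists were picked with their values in view. Same-numbered libraries did not vary together, so the numbers were not treated as pairs. Figures were drawn with matplotlib 3.10.9.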

Additional observations from a re-analysis of the deposited data

Results flagged for a closer look

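Of 195 sets of 6 libraries (65 genes in 3 groups), 7 held a library far from the other 5 by Dixon's criterion, and chance alone sets apart about 1 in 20. Dnajc5 (cysteine-string protein) stood at 11.2 FPKM in HXP 5, against 3.37 to 5.24 in the other HXP libraries. Hspb3 (a muscle small heat shock protein) stood at 9.88 FPKM in HXP 1, against 6.22 to 7.54. Hsph1 stood at 10.1 FPKM in MI 5, against 4.92 to 6.39 in the other MI libraries. Hspa1a stood at 5.03 FPKM in control 1, against 0.715 to 2.28 in the other control libraries. Dnajb4 stood at 4.71 FPKM in control 5, against 10.3 to 13.4. Hspa9 stood at 162 FPKM in control 5, against 136 to 140. Dnajb5 (a cytosolic J-domain protein) stood at 14.1 FPKM in control 4, against 8.23 to 10.2.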

How the results depend on the processing

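Of 1969 recomputed comparisons (55 named fold changes under up to 36 other settings), 1697 kept their direction and side of the threshold, 150 lost the call, 96 gained one and 26 changed sign. In MI against control, the counts of higher and lower calls (15 and 3) were 5 and 14 with quantile normalization, 5 and 15 with median-ratio scaling, 7 and 9 with scaling to non-mitochondrial reads, 5 and 16 with voom, 6 and 11 with GC correction, and 7 and 12 with GC correction and the replicate block. They were 0 and 0 in the run of 10 libraries, without MI 4 and MI 5 and without MI 3 and MI 5. With MI 1 and MI 2 averaged 1 was lower; their median squared difference was 7.64 times the counting variance, above counting noise but below every other pair of a group (13.2 to 300), so they stayed 2 libraries. Leaving out 1 library gave 7 to 17 higher and 0 to 3 lower, the lowest without MI 5. In HXP against MI, leaving out 1 library gave 0 to 1 lower (1 without HXP 1). In HXP against control (0 and 0), higher and lower calls were 0 and 2 with a pseudocount of 0.1, 1 and 2 with a filter at 5 FPKM, 1 and 5 with quantile normalization, 0 and 7 with median-ratio scaling, 0 and 3 with scaling to non-mitochondrial reads, 0 and 7 with voom, 0 and 5 with GC correction, 0 and 7 with GC correction and the replicate block, 15 and 4 without HXP 5 and HXP 6, and 0 and 2 without MI 3 and MI 5. Leaving out 1 library gave 0 to 7 higher and 0 to 5 lower. Signs changed as follows in MI against control (log2 scale). With quantile normalization Hspa14 was -0.018, Hspa4 -0.074, Dnajb14 -0.015, Dnajc18 -0.062, Dnajc7 -0.10 and Hsp90ab1 -0.0081. With median-ratio scaling Hspa4 was -0.14, Dnajc18 -0.033, Dnajc7 -0.14, Hspa5 -0.045 and Hsp90ab1 -0.18. With scaling to non-mitochondrial reads Hspa4 was -0.018, Dnajc7 -0.023 and Hsp90ab1 -0.057. With voom Hspa4 was -0.15, Dnajc18 -0.043, Dnajc7 -0.16, Hspa5 -0.050 and Hsp90ab1 -0.19. With GC correction, alone or with the block, Hspa4 was -0.026, Dnajc7 -0.083 and Hsp90ab1 -0.10. In HXP against MI, Dnaja2 was -0.00043 in the run of 10 libraries. Scaling shifts the median of all genes, from 0.27 in MI against control to 0.003 with median-ratio scaling; other causes were not tested. With the replicate number as a block the MI against control counts were 13 and 2, and no chaperone was called in either HXP comparison. Of 18 same-numbered pairs 5 correlated above 0.1 in their deviations (-0.31 to 0.63), and 2 libraries correlated best with their own number. GC correction, averaging MI 1 and MI 2, and leaving out MI 3 with MI 5 were chosen after seeing the data. Counting depth limits only the lowest genes, such as the 8 under 0.5 FPKM.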
